A study of Mus musculus with 22 samples.

Results

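The interferon-stimulated genes are those that cells switch on when interferons bind their receptors, and 31 of them, chosen by name, were followed through 22 mouse hearts. Ordered by role they are the signalling factors Stat2, Irf9, Irf7 and Irf1. The antiviral effectors are Ifit1, Ifit2, Ifit3, Oas1a, Oas2, Oasl2, Mx1, Mx2, Rsad2, Bst2, Ifi44 and Xaf1, and the RNA sensors are Ifih1 and Dhx58. The ubiquitin-like modifier Isg15 stands with its protease Usp18 and the regulators Ifi35 and Parp14. The GTPases are the guanylate-binding proteins Gbp2 and Gbp3 and the immunity-related GTPases Igtp, Irgm1, Iigp1 and Ifi47, and the antigen-processing genes are Psmb8, Psmb9 and Tap1. Array probes were assigned to a gene through the transcript accession in the array design, and each gene was read from its brightest detected probe. Of the 31 genes, 28 had a matched probe (39 probes, with more than 1 for 9 genes) and 27 were tested, of 15503 genes tested in all. Mx1, Mx2 and Xaf1 had no matched probe. Tap1 was well above background on 3 of 22 arrays, fewer than the 5 required, and was not tested. Of the 27, 22 were well above background on all 22 arrays, Ifi44 on 20, Irf7 and Ifit2 on 19, and Dhx58 and Ifi47 on 17.

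Interferons are secreted proteins that carry the alarm of infection from cell to cell. Type I interferons act through the receptor chains Ifnar1 and Ifnar2 on a complex with Stat2 and Irf9 that binds the interferon-stimulated response element (ISRE), whereas interferon gamma acts through Ifngr1 and Ifngr2 on the gamma-activated site (GAS). The Ifit, Oas and Isg15 genes are classic targets of type I interferons, and the GTPases, Irf1 and the immunoproteasome subunits respond strongly to interferon gamma. In the heart these genes are best known for limiting viruses that infect heart muscle cells.

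The hearts came from female C57BL/6 mice bought at 5 to 7 weeks of age and kept for 1 to 3 weeks before treatment. Each mouse received a single instillation into the trachea, under anaesthesia, of 162 µg nano-TiO2 (titanium dioxide particles of nanometre size) or only of its dispersant, which was saline with cell-free lavage fluid of untreated mice. At day 1 there were 5 control hearts and 5 nano-TiO2 hearts, and at day 28 there were 6 of each, so the controls had been anaesthetised and instilled as well. Hearts were stored as small pieces, and the RNA of 1 mouse was put on each Agilent 2-colour array in Cy5 against a common Cy3 reference RNA of 11 mouse cell lines, without dye swap. All levels below are log2 ratios of heart to this reference, so they rank genes by that ratio and not by the amount of transcript. All differences are limma estimates on that scale with their SE, and p-values were adjusted by Benjamini-Hochberg over the 15503 genes with a threshold of 0.05.

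In the heart channel 32.7% to 52.8% of the probes on an array exceeded background clearly, and arrays correlated at r between 0.895 and 0.986. The RNA extraction protocol in the labels names lung, whereas the heart genes Tnnt2 (5.66 ± 0.22, SD, n = 21) and Actc1 (5.96 ± 0.36, SD, n = 22) lay far above the reference and the surfactant genes Sftpc and Sftpb were above background on 0 of 22 arrays. Several hearts stood apart in what the piece of tissue held. By limits set after the data were seen, 3 hearts had almost no atrial transcripts, 5 hearts (4 of them control day 28) had liver or airway transcripts, and 3 hearts had high B cell transcripts. For the interferon-stimulated genes, control day 28 replicate 4 stood apart most. The main results for the members that rest on it are given with and without it. Group comparisons of genes outside the members are given only with it.

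Promoters of 7 members are printed because the results turn on these genes. The pair Igtp and Irgm1 and Gbp2 were taken for the heart that stood apart. Isg15 and Ifit3 are type I targets whose highest values were in different hearts, and Psmb8 and Ifih1 were taken for the difference between control groups. Each promoter is the RefSeq window of 300 bases (250 before and 50 after the annotated start) in build GRCm38.p6, read 5′ to 3′ on the strand of the gene. Capitals mark matches to the ISRE core (GAAA, any 2 bases, GAAA) or the GAS core (TTC, any 3 bases, GAA), searched on both strands. The windows are Igtp at chr11:58199306-58199605 (plus strand), Irgm1 at chr11:48871371-48871670 (minus), Gbp2 at chr3:142620413-142620712 (plus), Isg15 at chr4:156200769-156201068 (minus), Ifit3 at chr19:34583279-34583578 (plus), Psmb8 at chr17:34197945-34198244 (plus) and Ifih1 at chr2:62646206-62646505 (minus).
Igtp: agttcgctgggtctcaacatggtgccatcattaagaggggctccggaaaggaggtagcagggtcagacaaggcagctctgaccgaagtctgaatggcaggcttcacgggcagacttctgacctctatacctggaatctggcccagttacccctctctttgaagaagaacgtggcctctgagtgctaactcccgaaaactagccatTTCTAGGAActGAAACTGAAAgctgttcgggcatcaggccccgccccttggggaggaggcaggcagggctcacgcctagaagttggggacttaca
Irgm1: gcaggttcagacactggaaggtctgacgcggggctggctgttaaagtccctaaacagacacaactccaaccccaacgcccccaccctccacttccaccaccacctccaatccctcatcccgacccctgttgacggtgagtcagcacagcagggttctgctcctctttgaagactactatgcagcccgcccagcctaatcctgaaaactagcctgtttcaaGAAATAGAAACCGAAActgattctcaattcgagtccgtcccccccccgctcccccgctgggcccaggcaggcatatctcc
Gbp2: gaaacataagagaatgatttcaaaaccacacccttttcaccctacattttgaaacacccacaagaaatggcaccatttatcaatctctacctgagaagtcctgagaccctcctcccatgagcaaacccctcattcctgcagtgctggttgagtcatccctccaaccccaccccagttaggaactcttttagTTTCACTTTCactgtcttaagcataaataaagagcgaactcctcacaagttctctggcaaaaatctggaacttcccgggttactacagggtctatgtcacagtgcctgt
Isg15: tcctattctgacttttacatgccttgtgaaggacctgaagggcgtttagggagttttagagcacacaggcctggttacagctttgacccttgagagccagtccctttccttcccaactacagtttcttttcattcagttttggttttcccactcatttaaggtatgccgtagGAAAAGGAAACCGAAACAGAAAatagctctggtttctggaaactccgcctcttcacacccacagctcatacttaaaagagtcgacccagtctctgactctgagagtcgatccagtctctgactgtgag
Ifit3: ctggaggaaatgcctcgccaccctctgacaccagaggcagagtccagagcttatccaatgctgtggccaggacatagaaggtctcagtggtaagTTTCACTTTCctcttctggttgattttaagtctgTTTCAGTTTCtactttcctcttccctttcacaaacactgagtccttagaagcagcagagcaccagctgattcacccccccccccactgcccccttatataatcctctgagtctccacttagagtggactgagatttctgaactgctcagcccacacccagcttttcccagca
Psmb8: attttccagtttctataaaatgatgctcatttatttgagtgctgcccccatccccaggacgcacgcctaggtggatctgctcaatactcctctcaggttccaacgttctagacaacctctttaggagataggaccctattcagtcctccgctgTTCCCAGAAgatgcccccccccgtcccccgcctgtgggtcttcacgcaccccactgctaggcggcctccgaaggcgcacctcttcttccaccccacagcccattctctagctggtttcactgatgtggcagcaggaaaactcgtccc
Ifih1: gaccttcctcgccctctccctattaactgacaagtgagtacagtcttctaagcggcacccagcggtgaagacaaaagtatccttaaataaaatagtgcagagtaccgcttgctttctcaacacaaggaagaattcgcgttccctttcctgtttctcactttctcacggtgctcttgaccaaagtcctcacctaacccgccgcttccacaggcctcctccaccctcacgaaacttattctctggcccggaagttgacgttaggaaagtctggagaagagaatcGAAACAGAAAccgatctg

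Igtp held a GAS core that began 45 bases before the start and an ISRE core 34 bases before it, and Irgm1 held 2 overlapping ISRE cores at 30 and 24 bases before its start. Isg15 held a run of 3 overlapping ISRE cores, the first 78 bases before the start, and Ifit3 held 2 separate ones at 156 and 122 bases. The ISRE core of Gbp2 lay 59 bases before the start, that of Ifih1 lay 32 bases after it, and Psmb8 held a GAS core alone, 97 bases before its start. Of the 31 members, 24 had a window in the table (28 windows, 2 each for Gbp3, Ifit2, Irf1 and Irf9). The ISRE core was found in 12 of these 24 genes (50%) and in 3.99% of all 27025 genes with a window. The GAS core was found in 7 of 24 (29.2%) and in 9.55% of all genes with a window. Oas1a, Bst2 and Igtp held both, and 8 members held neither. Where the cores of 1 strand lie 6 bases apart they share letters, so the 20 ISRE matches in members are not all separate places. Psmb9 and Tap1 lie head to head and their windows share 275 bases, which hold neither core.

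**Figure D1:**
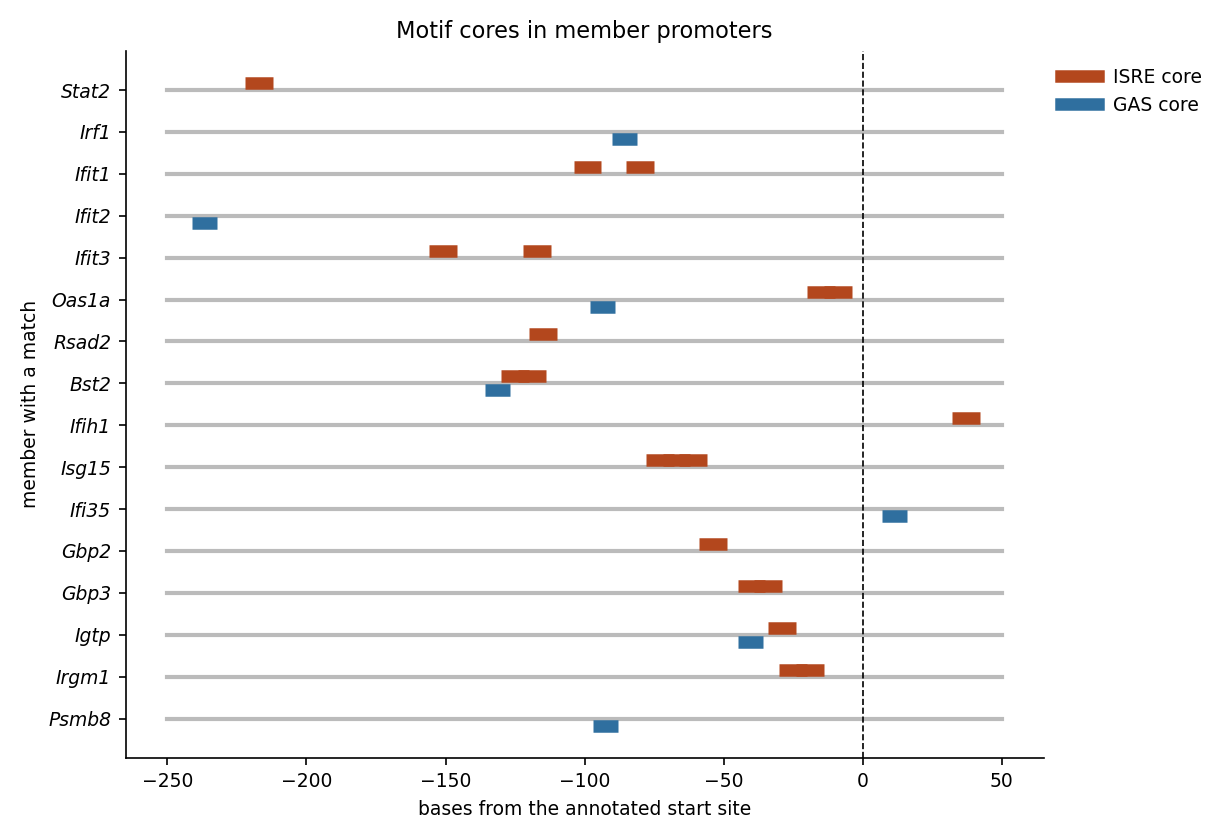
Positions of the ISRE core (red, above the line) and the GAS core (blue, below the line) in the promoter windows of the 16 members with a match; the x axis is the distance in bases from the annotated start (dashed line at 0). Most matches lie before the start, and those of Ifih1 and Ifi35 lie after it.

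Against the reference, the members spread from Iigp1 at 3.39 ± 0.57 (SD, n = 22 hearts) to Usp18 at -1.53 ± 0.28. The level of Iigp1 ran from 2.80 through a median of 3.26 to 5.53 over the hearts and that of Usp18 from -2.11 through -1.56 to -0.94, so the ranges of these outer members did not meet. The 3 highest ratios were those of GTPases that restrict parasites and bacteria inside cells. Iigp1, an immunity-related GTPase that attacks the vacuoles of intracellular parasites, was followed by the guanylate-binding proteins Gbp2 (1.54 ± 0.39) and Gbp3 (1.5 ± 0.37). Gbp2 and Gbp3 did not differ beyond their spread. Next came the antiviral gene Rsad2 (viperin) at 1.36 ± 0.31, Ifit3 at 1.27 ± 0.45, the ADP-ribosyltransferase Parp14 at 1.25 ± 0.23 and the sensor of double-stranded RNA Ifih1 (MDA5) at 1.02 ± 0.32, each within the spread of its neighbours. Igtp, Irf9, Irgm1, Ifi47, Oasl2, Stat2 and Ifit2 lay between 0.78 and 0.09, above the reference. The other members lay below it. Among these the 3 lowest were Usp18, Isg15 at -1.23 ± 0.37 and Ifi44 at -0.87 ± 0.21. Psmb8 (-0.86 ± 0.31), Irf7 (-0.83 ± 0.21) and Bst2, the tetherin that holds virus particles on the cell surface (-0.78 ± 0.37), lay next to Ifi44 without a gap beyond the spread. Isg15, the ubiquitin-like protein that is joined to other proteins after interferon, and Usp18, the protease that takes it off again, were therefore the members lowest relative to the cell lines of the reference. The mean Cy5 signal of the probes ran from 23.5 units for Ifit2 to 1080 for Bst2, and 6 members (Ifit2, Dhx58, Ifi47, Ifi44, Irf7 and Ifit1) were under the 50 units of the background offset, which draws their log2 ratios towards 0. Ifit3 and Oas1a have near-identical neighbours in the mouse genome (Ifit3b and Oas1g), and whether their probes tell these apart was not tested.

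A single control heart gave the strongest signal. Control day 28 replicate 4 had the highest value of all 22 hearts for 21 of 27 members, whereas it was the highest heart for 6.5% of all genes tested. It lay above the mean of the other 5 hearts of its group for 27 of 27 members (50.2% of all genes) and by more than 1 in log2 for 8 of 27 (1.04% of all genes). The median excess was 0.72 over the members and 0.001 over all genes. No other heart had more than 3 of the 27 highest values.

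The GTPases led this heart. Igtp, which guards against vacuolar pathogens, was at 3.67 there, while its lowest, median and highest values in control day 28 hearts were 0.44, 0.80 and 3.67. The other 5 hearts of the group averaged 0.79 ± 0.29 (SD), so replicate 4 was 7.37-fold above them. In no other heart of any group did Igtp pass 1.24. Iigp1 stood at 5.53 against 3.36 ± 0.42 in the other 5 (4.49-fold), Irgm1, a regulator of autophagy and of the other GTPases, at 1.95 against 0.46 ± 0.20 (2.80-fold), and Gbp2 at 3.01 against 1.58 ± 0.24 (2.68-fold). Gbp3 was 2.41-fold above and Ifi47 2.40-fold. These were 6 of the 7 members furthest above their group, the other being Isg15.

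Isg15 was at -0.10 in this heart, against a lowest, median and highest of -1.73, -1.28 and -0.10 in its group, and lay 2.42-fold above the other 5. Bst2 was 2.08-fold, Irf1, the transcription factor that drives many interferon gamma targets, 1.99-fold, Ifit1 and Ifit3 each 1.95-fold and Psmb9 1.80-fold above. The excess was smallest for Dhx58 (1.13-fold), Oas2 (1.25-fold) and Ifit2 (1.26-fold). Ifit2, an antiviral RNA-binding protein like Ifit1 and Ifit3, was at 0.30 in replicate 4, inside the range of its own group (-0.23 to 0.34). Under the 11 other ways of making the values from the same 22 arrays that were tried, replicate 4 remained the heart with the highest median over the members, and Igtp remained 2.80 to 3.30 above the other 5 hearts in log2.

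**Figure D2:**
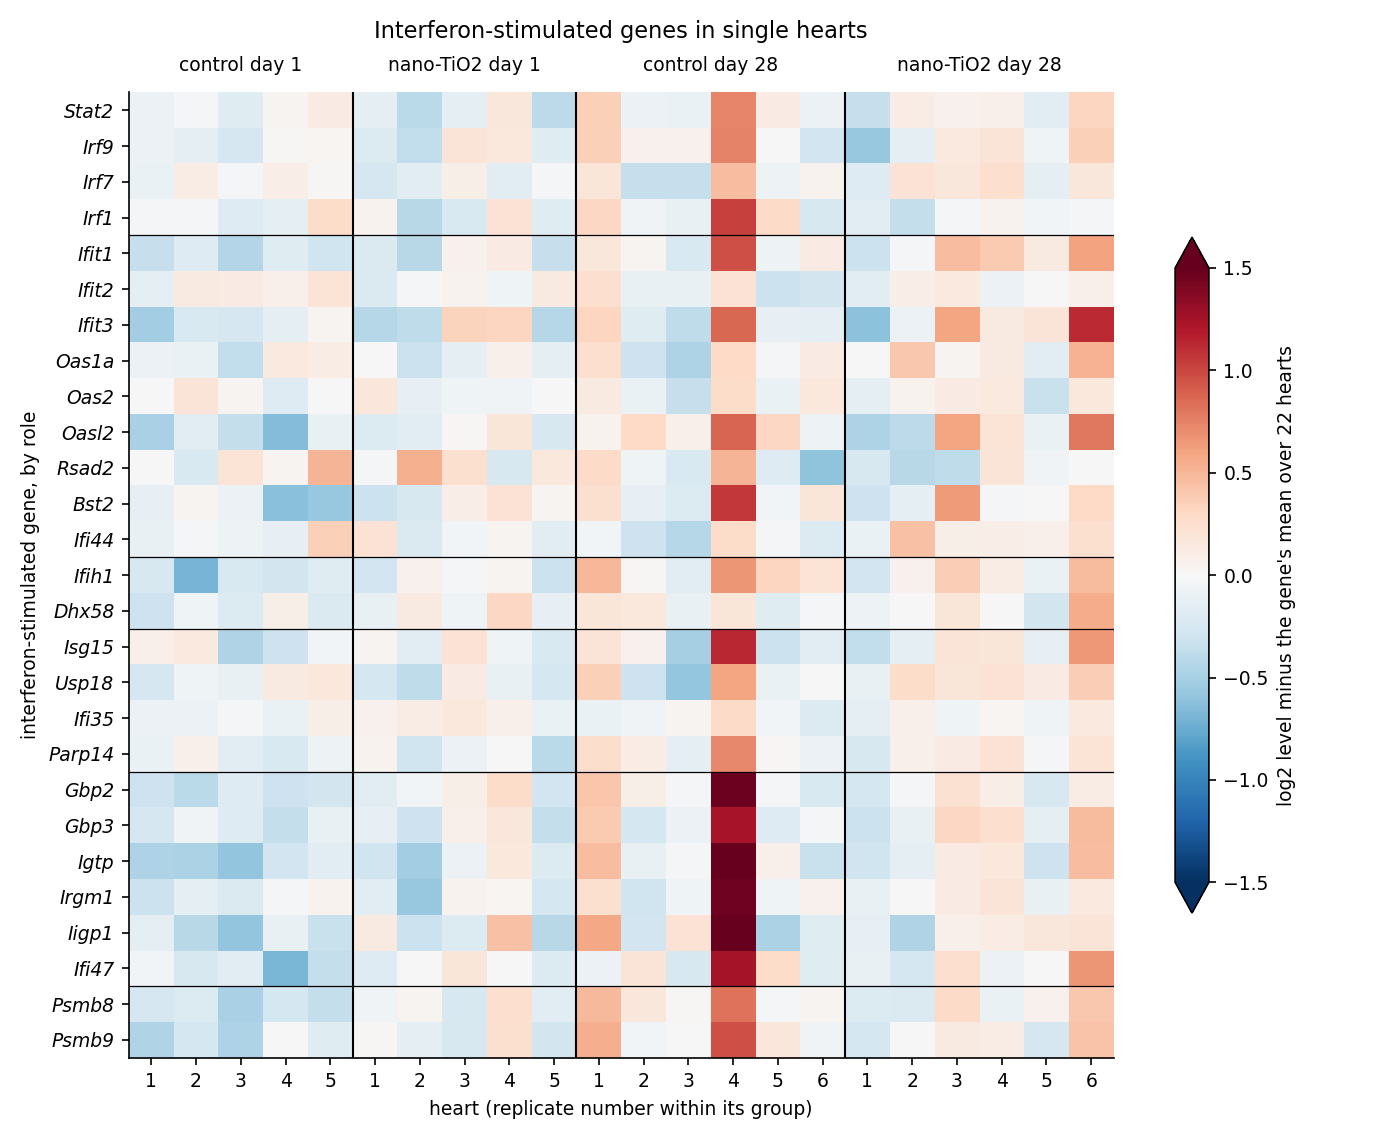
Heat map of the 27 tested members (rows, by role) in the 22 hearts (columns, by group); colour is the log2 value of a heart minus the mean of that member over all hearts. Control day 28 replicate 4 is the highest heart for 21 of 27 members, and nano-TiO2 day 28 replicate 6 has the second highest median (0.35 against 0.82).

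Interferon-stimulated genes outside the 31 were high in the same heart. From a list of 77 such genes (53 tested), Irgm2 stood at 4.50 against 2.16 ± 0.22 in the other 5 (5.04-fold). Tgtp1 was 3.51-fold above them, Gbp5 and Zbp1 each 2.66-fold, Gbp6 2.52-fold, and the chemokines Cxcl9 and Cxcl10 2.44-fold and 2.20-fold. Cxcl10 was well above background on only 5 of 22 arrays. Ifitm1 (0.84-fold), Ifi30 (0.88-fold) and Eif2ak2 (0.98-fold) lay below the other 5. Ifi27l2a (1.05-fold) and Ifi27 (1.23-fold), which are also interferon targets, were within the range of the group. The probe for interferon gamma (Ifng) was well above background on 1 of 22 arrays, this heart, and that for interferon beta (Ifnb1) on 0. The T and NK cell markers that could be tested (Cd3e and Nkg7, of 8 listed) were well above background on 11 of 22 arrays each. They averaged 0.40 above their mean over hearts, the highest of the 22, with the control day 28 hearts between 0.01 and 0.40. Cd3g, Cd4, Ncr1 and Klrb1c were well above background on 1 array each and were not tested. Liver markers (5 of 8 tested) averaged 3.66 above their mean, macrophage markers (7 of 8 tested) 0.55 and neutrophil markers (2 of 6 tested) 0.64, each also the highest of the 22. B cell markers (-0.31) and the airway marker tested (-0.40, 1 of 6 listed) were low. The part of these transcripts in the high interferon-stimulated genes was not tested. In whole tissue, more cells of a type and more RNA per cell cannot be told apart.

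The heart with the next highest median over the members had received particles, and other members led in it. With arrays centred on their median in place of loess it came only at rank 6 of the 22 (median 0.22). In nano-TiO2 day 28 replicate 6, all 27 members lay above the mean of the other 5 hearts of the group (50.7% of all genes), by a median of 0.37. It was the highest of the 22 hearts for 3 members (3.21% of all genes), and 1 member lay above the others by more than 1 (0.968% of all genes). That member was Ifit3, an antiviral protein of the family that binds foreign RNA, at 2.39 against 1.32 ± 0.44 (SD, n = 5), or 2.10-fold. Of the 6 GTPases that led in the control heart, Ifi47 was 1.63-fold, Igtp 1.47-fold and Gbp3 1.39-fold above the other 5 hearts here, and Iigp1 was 1.18-fold, Gbp2 1.11-fold and Irgm1 1.09-fold above them. Ifi27l2a was 3.68-fold and Ifi27 2.25-fold above them, whereas in the control heart they were within the range of the group. The groups differed in level, since the other 5 hearts averaged 1.39 and -1.06 here but 2.29 and -0.05 in the control group. Ifi27 itself was at 0.11 in this heart and at 0.26 in the control heart, and Ifi27l2a at 3.27 and 2.36. B cell markers (3 of 5 tested) averaged 1.55 above their mean, while Cd79a and Pax5 were above background on 0 of 22 arrays. Control day 28 replicates 1 and 5 had similar B cell means (1.71 and 1.53), with medians over the members of 0.26 and -0.04. Of 4 plasmacytoid dendritic cell markers only Ly6d and Tcf4, which other cells express too, were tested. They averaged 1.20, the highest of the 22, while Siglech was above background on 0 arrays and Ccr9 on 1. The part of these cells in the result was not tested.

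**Figure D3:**
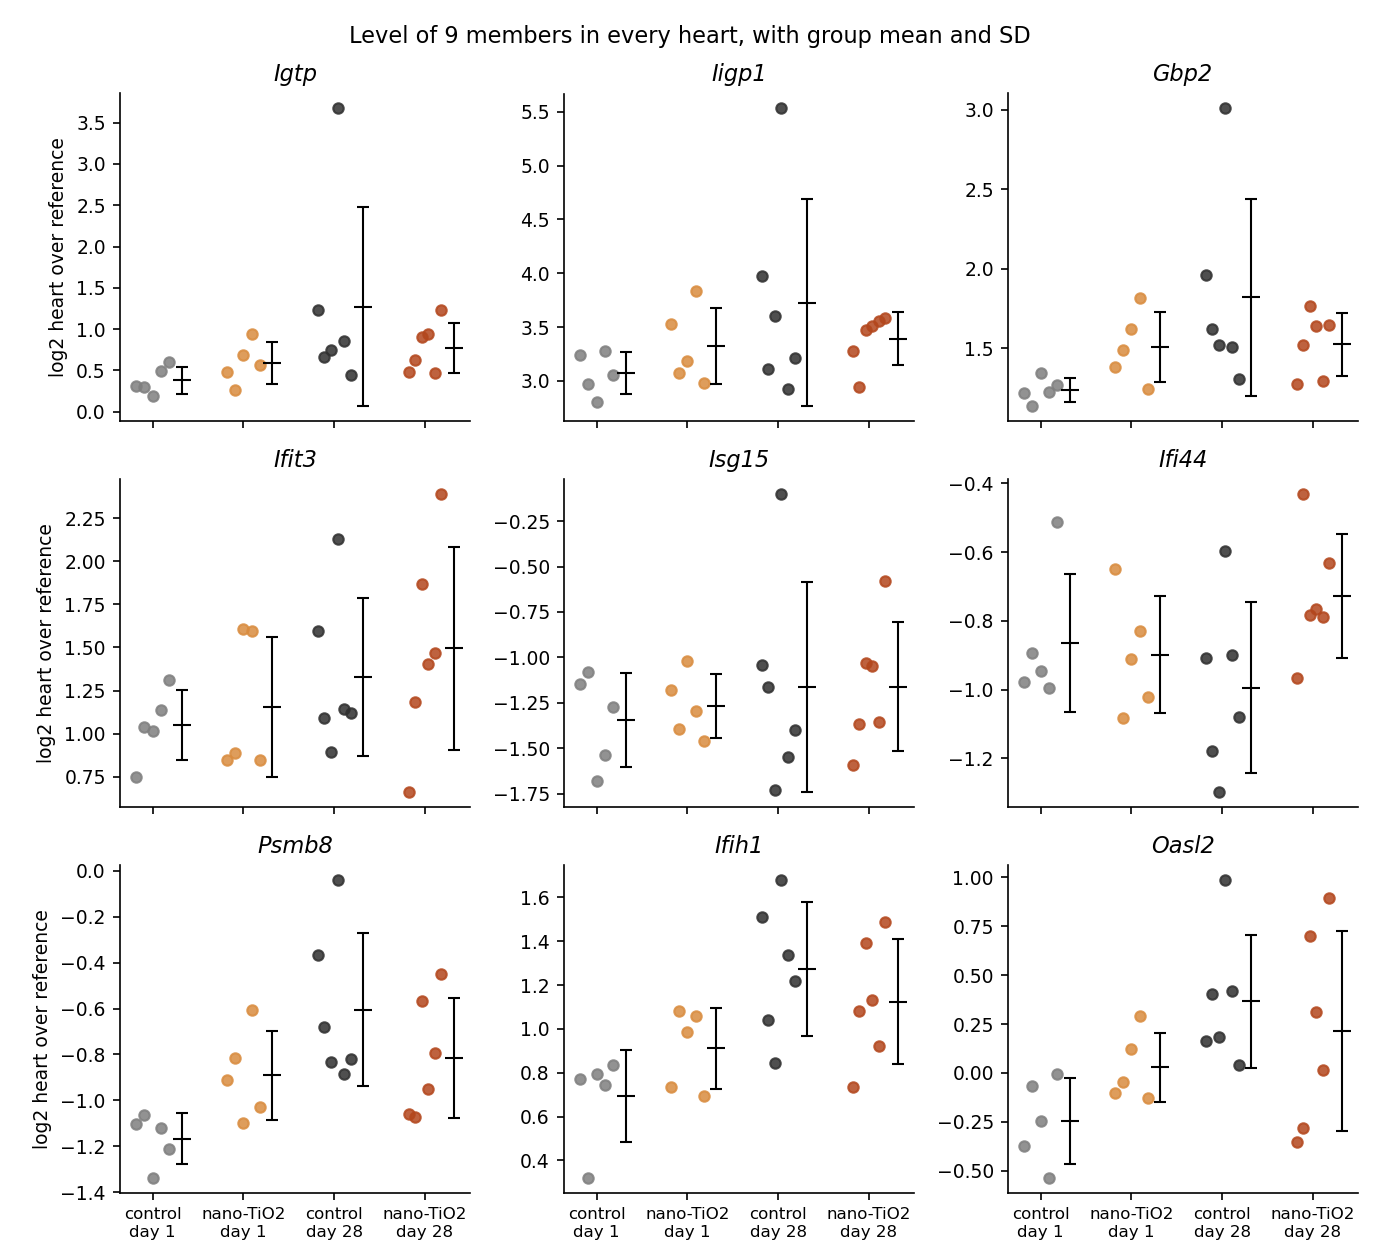
Log2 level over the reference of 9 members in every heart (points), by group, with the group mean and SD beside the points (5 hearts a group at day 1, 6 at day 28). A single control day 28 heart lifts the mean and SD of Igtp, Iigp1, Gbp2 and Isg15, while Ifit3 is highest in a nano-TiO2 day 28 heart and the control groups of Psmb8, Ifih1 and Oasl2 do not overlap.

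At day 1 no interferon-stimulated gene passed the threshold. Of the 27 members 17 were higher with nano-TiO2 and 10 lower, with a median of 0.09, beside 54.3% higher and a median of 0.01 over all genes. limma called 0 of 27 members and 0% of all genes after Benjamini-Hochberg adjustment, and an unadjusted p under 0.05 was found in 0 of 27 members, beside 8.64% of all genes. In no member were the groups free of overlap, which held for 1.71% of all genes. Within the 3 scan days the median over the members was 0.23, -0.05 and 0.03. On the 4 slides that held a heart of both groups it was -0.14, 0.13, -0.19 and 0.24, and a fit that blocked on the slide gave 0.0057, with 14 of 27 higher.

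The smallest p on the higher side belonged to Psmb8, the immunoproteasome subunit LMP7, which cuts peptides for presentation to T cells. Its levels were -1.10, -1.06, -1.34, -1.12 and -1.21 in the control hearts and -0.91, -0.82, -1.10, -0.60 and -1.03 in the nano-TiO2 hearts. All but 1 of the treated hearts lay above every control, with the third overlapping them. The difference was 0.28 ± 0.15 (95% interval -0.03 to 0.58, limma adjusted p = 0.607), and on the 4 shared slides it was 0.19, 0.19, 0.25 and 0.51. Ifih1 was at 0.77, 0.32, 0.79, 0.74 and 0.84 in controls and 0.73, 1.08, 0.99, 1.06 and 0.69 in treated hearts, and differed by 0.22 ± 0.15 (limma adjusted p = 0.684). Here 3 treated hearts lay above all controls and 2 among them.

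On the lower side were 2 signalling factors. Stat2, the subunit that brings the activation domain to the type I interferon complex, was at 0.01, 0.08, -0.09, 0.14 and 0.22 in controls and -0.04, -0.31, -0.04, 0.27 and -0.30 in treated hearts, a difference of -0.15 ± 0.15 (limma adjusted p = 0.770). Irf7, which amplifies type I interferon production, differed by -0.13 ± 0.13 (limma adjusted p = 0.778). Its treated hearts ran from -1.08 to -0.74 and its controls from -0.93 to -0.72, with 2 of the controls not well above background, so the groups overlapped. By role, the GTPases had a median difference of 0.23 (5 of 6 higher), and the signalling factors -0.11 (1 of 4 higher, but 4 of 4 with arrays centred on their median in place of loess, where 26 of 27 members were higher and the median of all genes was 0.17). Gbp2 was at 1.22, 1.14, 1.35, 1.22 and 1.27 in controls and 1.38, 1.49, 1.62, 1.82 and 1.24 in treated hearts, 4 of which lay above every control (0.27 ± 0.21, limma adjusted p = 0.708).

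At day 28 again no member passed, and the direction of the list reversed when 1 heart was left out. Of the 27 members 10 were higher and 17 lower with nano-TiO2, with a median of -0.10 (48.1% higher and a median of -0.01 over all genes). limma called 0 of 27 members and 0% of all genes after adjustment, an unadjusted p under 0.05 was found in 1 member (7.6% of all genes), and the groups were free of overlap for 0 members and 0.123% of all genes. Without control day 28 replicate 4, 18 of 27 members were higher and the median was 0.06. Without the 5 hearts with liver or airway transcripts, replicate 4 among them, 22 of 27 were higher and the median was 0.12. That set takes away 4 of the 6 control day 28 hearts, so few controls remain. Within the 3 scan days, with all hearts, the median was -0.13, -0.28 and 0.23, and replicate 4 was on the first. On the 6 slides that held a heart of both groups it was -0.05, 0.39, 0.30, -0.66, -0.51 and -0.01. The fourth of these slides held replicate 4.

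The member with the smallest p was Ifi44, an interferon-induced protein that slows cell growth. It ran from -1.30 through a median of -0.99 to -0.60 in control hearts and from -0.97 through -0.78 to -0.43 in nano-TiO2 hearts. The groups overlapped, and the difference was 0.27 ± 0.11 (95% interval 0.03 to 0.50, unadjusted p = 0.0290, limma adjusted p = 0.642). Without control replicate 4 it was 0.34 ± 0.11 (unadjusted p = 0.00427, limma adjusted p = 0.933). Oas1a, which makes the oligoadenylates that switch on an RNA-cutting enzyme, ran from -1.0 through -0.49 to -0.24 in controls and from -0.71 through -0.45 to -0.02 in treated hearts, with a difference of 0.17 ± 0.13 (limma adjusted p = 0.781).

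On the lower side Irf1 ran from -0.77 through -0.42 to 0.50 in controls and from -0.88 through -0.57 to -0.48 in treated hearts. The treated hearts lay closer together than the controls, and the groups overlapped. The difference of -0.30 ± 0.16 (limma adjusted p = 0.666) was -0.14 ± 0.12 without control replicate 4. Psmb8 was -0.21 ± 0.13 (limma adjusted p = 0.733) and -0.10 ± 0.12 without that heart. The 6 GTPases, all lower with a median of -0.24, showed the dependence most: Igtp was -0.49 with all hearts and -0.01 without replicate 4, Iigp1 -0.34 and 0.03, Irgm1 -0.19 and 0.06, Gbp3 -0.10 and 0.11.

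**Figure D4:**
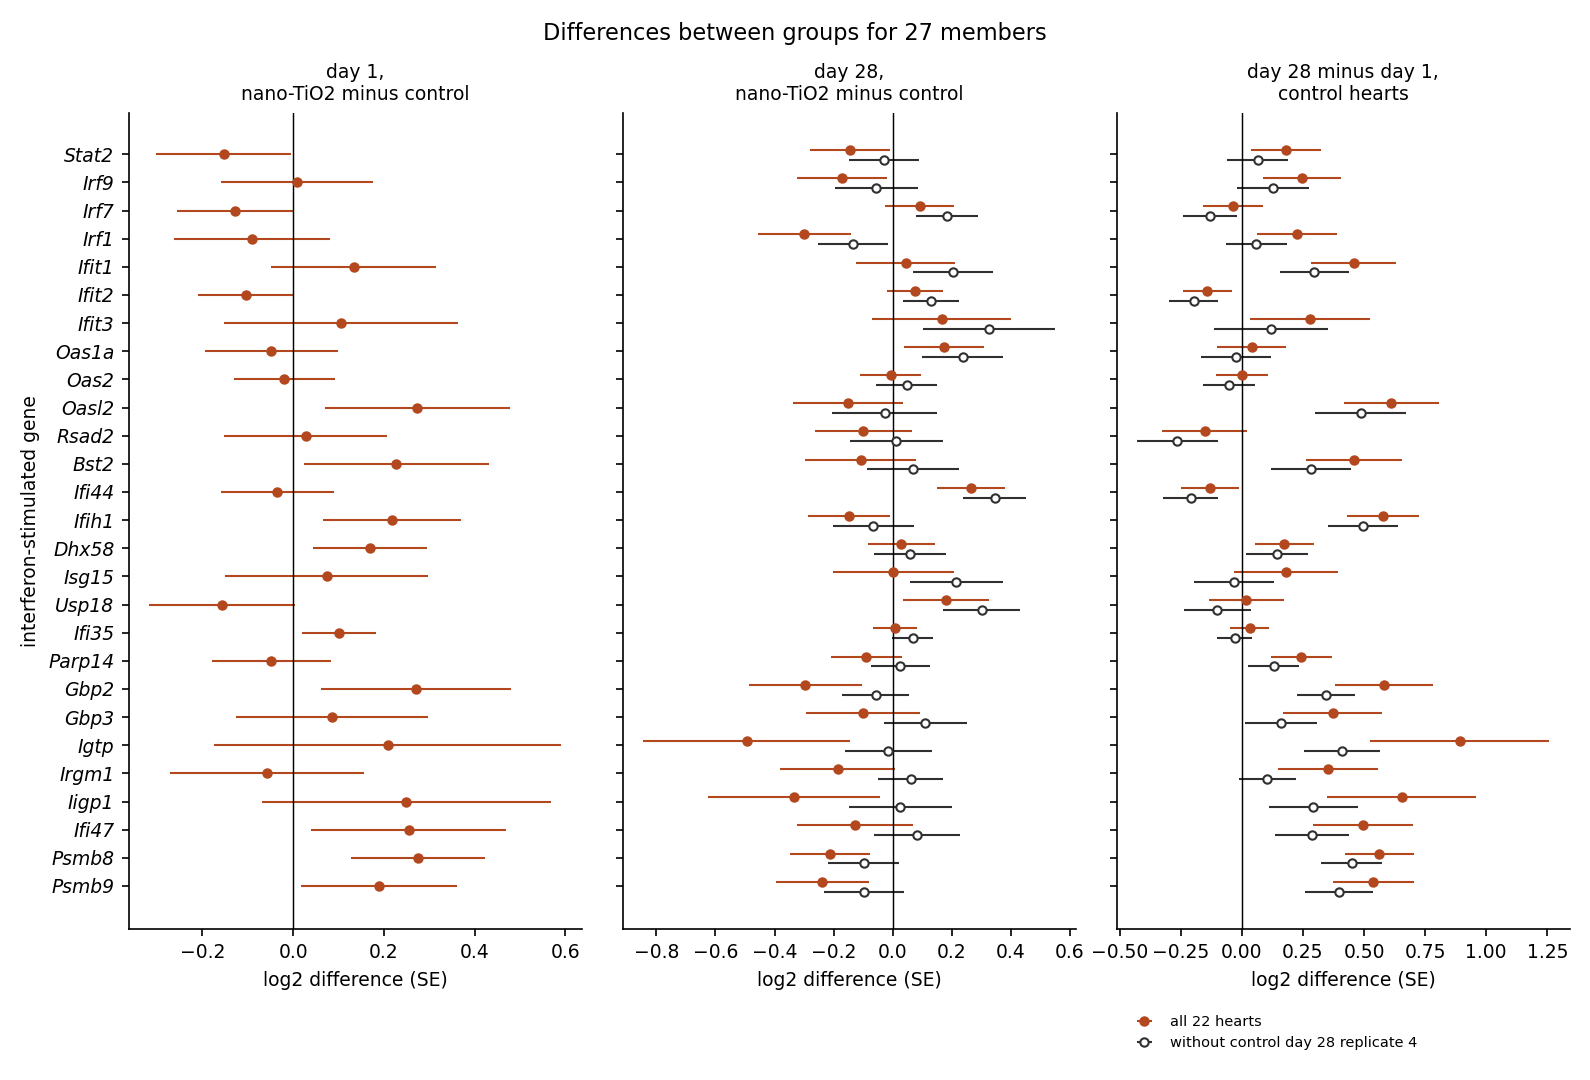
Log2 differences of the 27 members with their SE for nano-TiO2 minus control at day 1 and day 28 and for day 28 minus day 1 among control hearts, with all 22 hearts (filled) and without control day 28 replicate 4 (open). At day 28 the GTPases move to about 0 without that heart, while Psmb8 and Ifih1 stay above 0 in the control comparison.

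The largest differences were between the control groups. In control hearts 23 of 27 members were higher at day 28 than at day 1, with a median of 0.24 (49.5% higher and a median of -0.002 over all genes). limma called 4 members after Benjamini-Hochberg adjustment, all higher, beside 10.5% of all genes in either direction and 7.03% of all genes higher. At an unadjusted p under 0.05 there were 10 of 27, all higher (25.4% of all genes, 14.9% of all genes higher). For 3 members (Psmb8, Ifih1 and Oasl2) the groups did not overlap, beside 7.02% of all genes.

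Both tested antigen-processing members rose. Psmb8 was at -1.10, -1.06, -1.34, -1.12 and -1.21 at day 1 and ran from -0.89 through -0.75 to -0.04 at day 28, every day 28 heart above every day 1 heart. It rose by 0.56 ± 0.14, or 1.48-fold (limma adjusted p = 0.0144). Psmb9, the LMP2 subunit of the same particle, was at -0.80, -0.62, -0.81, -0.36 and -0.54 at day 1 and ran from -0.41 through -0.27 to 0.62 at day 28. The groups overlapped through the fourth day 1 heart, and the rise was 0.54 ± 0.16, or 1.45-fold (limma adjusted p = 0.0382). Their neighbour Tap1, a chain of the transporter that brings peptides to class I molecules, was detected in 2 control day 28 hearts and no control day 1 heart, too few to test. Its probe, near background, differed by -0.009 between the control groups.

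The RNA sensor Ifih1 ran from 0.84 through 1.28 to 1.68 at day 28, all above its day 1 values of 0.32 to 0.84, and rose by 0.58 ± 0.15, or 1.49-fold (limma adjusted p = 0.0149). Oasl2, an antiviral protein related to the oligoadenylate synthetases, was at -0.37, -0.07, -0.25, -0.54 and -0.01 at day 1 and ran from 0.04 through 0.29 to 0.99 at day 28. It rose by 0.61 ± 0.20, or 1.53-fold (limma adjusted p = 0.0472), with no overlap. Without control day 28 replicate 4, Psmb8 (0.45 ± 0.13, limma adjusted p = 0.037) and Ifih1 (0.50 ± 0.14, adjusted p = 0.043) still passed, while Psmb9 (0.40, adjusted p = 0.092) and Oasl2 (0.49, adjusted p = 0.122) did not. Then 18 of 27 members were higher, with a median of 0.13, 2 members were called (6.19% of all genes), with an unadjusted p under 0.05 in 7 (21.7% of all genes).

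The GTPases were all higher at day 28 (6 of 6, median 0.54), and 4 of them had an unadjusted p under 0.05, but none passed. Gbp2 ran from 1.31 through 1.57 to 3.01, against 1.14 to 1.35 at day 1, with 1 heart overlapping. It differed by 0.58 ± 0.20 (limma adjusted p = 0.066), and by 0.34 ± 0.12 without replicate 4 (adjusted p = 0.087). Igtp differed by 0.89 ± 0.37 (limma adjusted p = 0.125) and by 0.41 ± 0.15 without it (adjusted p = 0.116), and Iigp1 by 0.65 ± 0.31 and 0.29. Ifit1 (0.46 ± 0.17, limma adjusted p = 0.097) and Bst2 (0.46 ± 0.20, adjusted p = 0.141) were the other antiviral genes with an unadjusted p under 0.05, and differed by 0.30 (adjusted p = 0.228) and 0.28 (adjusted p = 0.331) without replicate 4. Ifit2 (-0.14 ± 0.10, limma adjusted p = 0.405) and Ifi44 (-0.13 ± 0.12, adjusted p = 0.545) had the smallest p on the lower side. Ifit2 was at -0.05, 0.23, 0.22, 0.17 and 0.30 at day 1 and ran from -0.23 through -0.02 to 0.34 at day 28, so its groups overlapped throughout. Usp18 (0.02), Oas2 (0.001), Ifi35 (0.03) and Irf7 (-0.04) were near 0.

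The control groups also differed in what the tissue pieces held. Smooth muscle markers (5 of 5 tested) averaged from -1.42 to -0.79 in control day 1 hearts and from 0.41 to 1.30 in control day 28 hearts, relative to their mean over all hearts, with no overlap. Macrophage markers (7 of 8 tested, all on 22 arrays) averaged from -0.62 to -0.12 at day 1 and from -0.07 to 0.55 at day 28, again with no overlap. Adipocyte markers averaged -1.97 and 1.56 in the day 1 and day 28 controls and atrial markers -1.20 and 0.90, both without overlap. Fibroblast (-0.30 and 0.21), mesothelium (-0.75 and 0.57) and T and NK cell markers (-0.08 and 0.15, 2 of 8 tested) did not overlap either. The markers of cardiomyocytes, liver, airway, B cells, plasmacytoid dendritic cells, neutrophils, endothelium, erythroid cells and thymus overlapped. The part of tissue content in the rise of Psmb8, Psmb9, Ifih1 and Oasl2 was not tested.

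Within the 3 scan days the difference was 0.90, 0.56 and 0.31 for Psmb8, 0.95, 0.61 and 0.15 for Psmb9, 0.47, 0.73 and 0.49 for Ifih1 and 0.83, 0.50 and 0.50 for Oasl2, while the median over the members was 0.52, 0.20 and -0.03. The first scan day compares 2 control day 28 hearts, replicate 4 among them, with only 1 control day 1 heart. With scan day as a block all 4 genes passed. With slide as a block, where 3 slides held hearts of both control groups, none did: Psmb8 was 0.57 (limma adjusted p = 0.128), Psmb9 0.53 (adjusted p = 0.160), Ifih1 0.52 (adjusted p = 0.177) and Oasl2 0.45 (adjusted p = 0.345). On those 3 slides the differences were 0.33, 0.51 and 0.69 for Psmb8, 0.35, 0.47 and 0.81 for Psmb9, 0.50, 0.05 and 1.19 for Ifih1, and 0.43, 0.43 and 0.23 for Oasl2. Without the 5 hearts with liver or airway transcripts, which leaves 2 control day 28 hearts, none of the 4 passed (limma adjusted p between 0.346 and 0.684), beside 0.00645% of all genes that did. Of 42 alternatives in all, Psmb8 passed in 37, Ifih1 in 33, Psmb9 in 25 and Oasl2 in 18. Leaving out a single heart ended no call of Psmb8, and that of Ifih1 only for control day 1 replicate 2 (0.49, limma adjusted p = 0.0543), its lowest heart. Psmb9 fell short without any of control day 1 replicates 1, 2 and 3 or control day 28 replicates 1, 4 and 5 (limma adjusted p up to 0.0947), and Oasl2 without any of 14 hearts (adjusted p up to 0.122). The count of 4 members therefore became 1 without control day 1 replicate 2, and 2 without control day 1 replicate 1 or 3 or control day 28 replicate 1, 4 or 5.

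Among nano-TiO2 hearts, which share no heart with the control comparison, 25 of 27 members were higher at day 28 than at day 1, by a median of 0.12 (44.3% higher and a median of -0.02 over all genes). limma called 0 of 27 members and 0% of all genes, with an unadjusted p under 0.05 in 2 members (4.49% of all genes). No member had groups free of overlap (0.761% of all genes). Usp18 was at -1.80, -1.91, -1.41, -1.65 and -1.80 at day 1 and ran from -1.65 through -1.33 to -1.16 at day 28, and the groups overlapped. It differed by 0.36 ± 0.15 (unadjusted p = 0.0298, limma adjusted p = 0.905). Ifit1 was at -0.42, -0.62, -0.13, -0.07 and -0.55 at day 1 and ran from -0.52 through 0.06 to 0.40 at day 28, a difference of 0.37 ± 0.17 (unadjusted p = 0.0466, limma adjusted p = 0.905). Rsad2, which makes a nucleotide that ends viral RNA chains, had the smallest p on the lower side. It was at 1.33, 1.89, 1.61, 1.13 and 1.52 at day 1 and ran from 0.95 through 1.22 to 1.56 at day 28 (-0.28 ± 0.17, limma adjusted p = 0.905). Ifi35 was the other lower member (-0.06 ± 0.08). Psmb8, which rose in the control hearts, differed here by 0.08 ± 0.14 (95% interval -0.22 to 0.37). With arrays centred on their median in place of loess 15 of 27 members were higher, with a median of 0.02 beside -0.12 over all genes. Psmb8, Psmb9, Gbp2 and Iigp1 were among the lower ones, and relative to all genes the median of the members was 0.14 under either.

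Whether the effect of the particles itself changed between the days was tested as the day 28 difference minus the day 1 difference. It contains all 4 groups and so both control groups of the comparisons above. limma called 0 of 27 members and 0% of all genes, with an unadjusted p under 0.05 in 1 member (14.8% of all genes). That was Psmb8, at -0.49 ± 0.20 (95% interval -0.91 to -0.07, unadjusted p = 0.0232, limma adjusted p = 0.255), made of 0.28 at day 1 and -0.21 at day 28. Gbp2 followed with -0.57 ± 0.28 (limma adjusted p = 0.358), and with -0.33 ± 0.17 without control day 28 replicate 4 (adjusted p = 0.429). Ifi44 (0.30 ± 0.17, adjusted p = 0.427) and Usp18 (0.34 ± 0.22, adjusted p = 0.491) were on the other side. The members had a median of -0.13 with 8 of 27 higher (45.8% higher and a median of -0.02 over all genes), and of -0.02 with 13 of 27 higher without control day 28 replicate 4.

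Across the 22 hearts, with each group mean subtracted (taken again where hearts were left out), 3 pairs of members were compared, and p was adjusted over the 3. Igtp and Irgm1, GTPases of the same family encoded on chromosome 11, varied together most closely, with Pearson r = 0.943 and Spearman rho = 0.894 (permutation p = 1e-05 for each, the smallest that 100000 permutations can give, adjusted 1.5e-05). Without the 2 hearts farthest from the median r was 0.844, and without control day 28 replicate 4 alone it was 0.736. Ifit1 and Ifit3, RNA-binding proteins of the same family, gave r = 0.894 and rho = 0.874 (permutation p = 1e-05 for each, adjusted 1.5e-05), and r = 0.835 without the 2 farthest hearts. Isg15 and Irf7 were more loosely tied, with r = 0.663 (permutation p = 0.00075, adjusted 0.00075) and rho = 0.578 (permutation p = 0.00552). Their r was 0.437 without the 2 farthest hearts and 0.436 without control day 28 replicate 4 alone. The planned pair of Tap1 with Psmb9 could not be computed, since Tap1 was not tested.

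**Figure D5:**
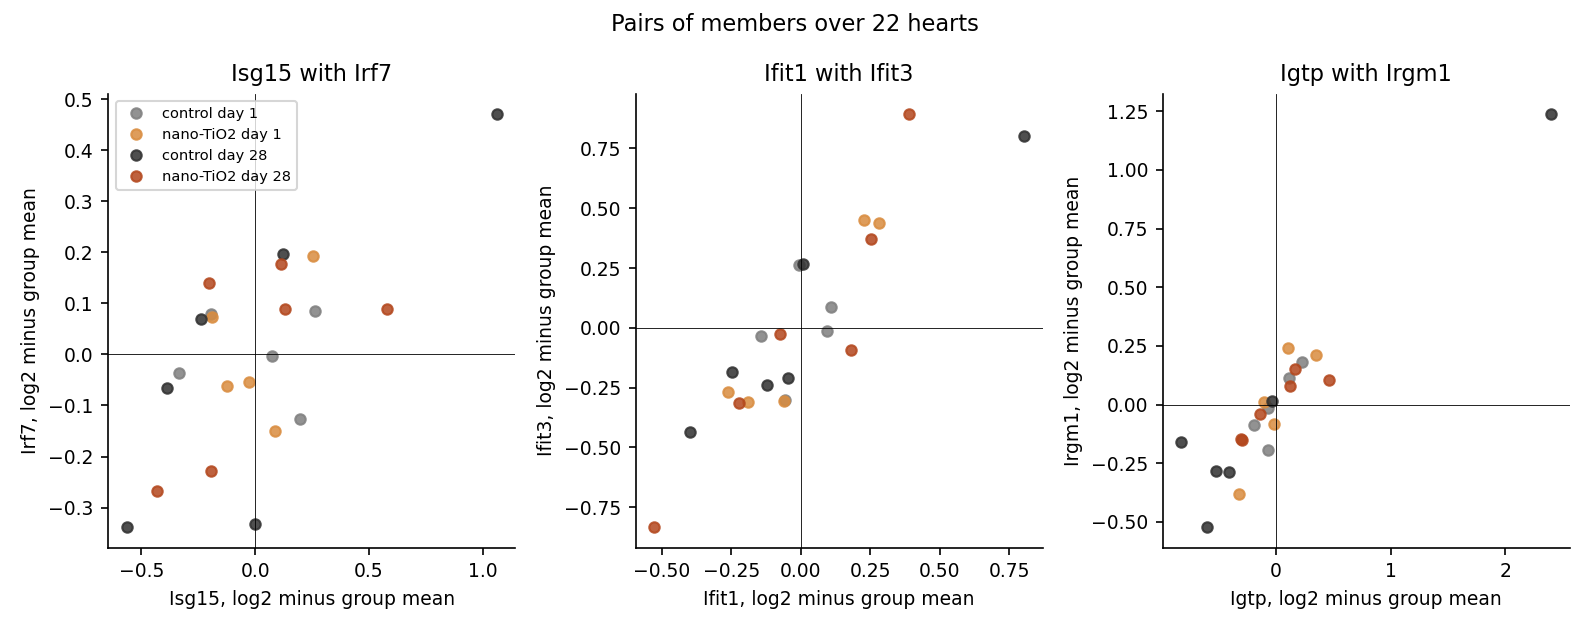
Values of Isg15 and Irf7 (left), Ifit1 and Ifit3 (middle) and Igtp and Irgm1 (right) in the 22 hearts, in log2 with the mean of each group subtracted. Each point is a heart, coloured by group. Control day 28 replicate 4 is the point furthest right in each panel, and r is 0.663, 0.894 and 0.943.

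Upstream of the members, a list of 37 interferons, receptors, kinases, factors and sensors was read, of which 28 could be tested. In nano-TiO2 against control hearts 19 of 28 were higher at day 1 (54.3% of all genes) and 11 of 28 at day 28 (48.1% of all genes). On either day limma called 0 of them and 0% of all genes. Of the interferons, Ifnb1, Ifna4 and Ifnl3 were above background on 0 of 22 arrays. The type I receptor chain Ifnar1 differed by -0.05 at day 1 and -0.02 at day 28, and Ifnar2 by 0.10 and -0.14. The interferon gamma receptor chain Ifngr1, which binds the ligand, differed by 0.27 ± 0.11 at day 1 (unadjusted p = 0.0202, limma adjusted p = 0.498) and by -0.12 at day 28. Ifngr2, the signalling chain, differed by -0.22 and 0.27 ± 0.13. Also named by the smallest p were Irf3 (0.23) at day 1, and Ifna2 (0.36) and Irf8 (-0.23) at day 28, none past the threshold. Ifna2 was well above background on 11 of 22 arrays, and its nano-TiO2 day 28 hearts ran from 0.02 to 1.38 (0.41 ± 0.49, SD, n = 6).

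In control hearts 4 of the 28 passed between day 1 and day 28, 3 of them higher and 1 lower, beside 10.5% of all genes. Those that rose included Irf8, a factor of macrophages and dendritic cells, by 0.48 (limma adjusted p = 0.0124) and Pias1, an inhibitor of interferon signalling, by 0.29 (adjusted p = 0.022), while Ifngr2 fell by 0.42 (adjusted p = 0.0427).

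Of the 53 further interferon-stimulated genes tested, 40 were higher at day 1 with nano-TiO2 (median 0.10, beside 54.3% of all genes higher). At day 28 it was 13 (median -0.06, beside 48.1% of all genes higher), and 0 were called on either day (0% of all genes). Control day 28 replicate 4 averaged 0.53 above the mean of these genes over hearts. The other control day 28 hearts ran from -0.08 to 0.22 and the nano-TiO2 day 28 hearts from -0.17 to 0.30. Every day 28 count for this list contains that control heart. At day 1 the smallest p belonged to Ifi27l2a and Ifi27, small membrane proteins induced by interferon. Ifi27l2a was at 0.52 ± 0.48 (SD, n = 5) in controls and 1.80 ± 0.74 (n = 5) in treated hearts, a difference of 1.27 ± 0.46 (unadjusted p = 0.0109, limma adjusted p = 0.479). Ifi27 differed by 0.95 ± 0.35 (limma adjusted p = 0.486), and Adar, which edits double-stranded RNA, by 0.18. At day 28 Ifi27 differed by -0.87 ± 0.32 (limma adjusted p = 0.636), Tapbpl by -0.22 and Lgals9 by 0.17. Between the control groups 44 of 53 were higher at day 28 and 6 rose past the threshold (beside 7.03% of all genes higher and 10.5% in either direction). These were Ifi27l2a (1.77 ± 0.44, limma adjusted p = 0.0136), Ifi27 (1.49 ± 0.34, adjusted p = 0.009), Casp4 (0.71, adjusted p = 0.0103), Lgals3bp (0.65, adjusted p = 0.0195), Adar (0.25, adjusted p = 0.0428) and Shisa5 (0.53, adjusted p just under 0.05).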

How the data were processed

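Cy5 (heart) and Cy3 (reference) were measured on 22 arrays on 9 slides over 3 scan days. The deposited scanner files of the authors hold median intensity values of each spot and its background, and a log10 ratio from Agilent Feature Extraction (10.7.3.1 per the file headers, 9.5.3.1 per the submitters' processing notes). The deposited series matrix holds log2 values whose method the labels do not give. The ratio and the matrix were used as alternatives.

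Here R 4.3.3 with limma 3.58.1 and the data.table package (version 1.17.8) were used, and Python 3.11.15 with matplotlib 3.10.9 for promoters and figures. Median intensities were background-corrected (normexp, offset 50, fitted without spots of uneven background) and normalized by loess within arrays. Spots marked by the scanner software (0.299%) were left out, spots of a probe averaged, and probes kept where the scanner software had marked them well above background on 5 or more heart channels. A mean for each of the 4 groups was fitted with eBayes. Only this fit was tested on simulated data, which were log2 ratios with each gene varying on its own, and the earlier steps were not. The members, the lists, the named-gene rule (the 2 smallest p in each direction, the 3 highest and lowest ratios, the planned pairs and members with a heart far from its group) and the tests were chosen with earlier results of these data known. Replicate numbers follow accession order and pair no hearts, but treated and control hearts shared 4 slides at day 1 and 6 at day 28, so slide was tried as a block. For arrays, their number limits the precision. The values of 1 gene of the upstream list are not reported here.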

Additional observations from a re-analysis of the deposited data

Results flagged for a closer look

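In groups of 5 or 6 hearts, a value far from the others of its group was looked for in each member and in the median over the members, 112 groups in all. Chance flags about 1 in 20 such groups, and 7 were found, 5 of them in control day 28 replicate 4. In that heart Igtp stood at 3.67 (next highest in the group 1.24), Irgm1 at 1.95 (0.73), Ifi47 at 1.51 (0.53), Ifit1 at 0.77 (-0.02) and Bst2 at 0.28 (-0.55). Iigp1, Gbp2 and Isg15 were also highest in this heart, but the spread of the rest of the group kept them under the limit. The other flags were in control day 1 hearts. Ifih1 was low in replicate 2, at 0.32, while the other 4 hearts lay between 0.74 and 0.84, and Ifi44 was high in replicate 5, at -0.51, while the others lay between -0.99 and -0.89.

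The change of the nano-TiO2 difference from day 1 to day 28 stood out for Gbp2 at -0.57. Every nano-TiO2 day 1 heart lay above the control mean of its day, and every nano-TiO2 day 28 heart lay below that of its own. The difference itself was tested and did not pass (± 0.28 SE, unadjusted p = 0.0577, limma adjusted p = 0.358 after Benjamini-Hochberg). The day 28 control mean holds replicate 4, at 3.01. Without it, 3 of the 6 nano-TiO2 day 28 hearts lay above the control mean of 1.58, the day 28 difference was -0.06 and the change -0.33.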

How the results depend on the processing

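The number of samples limits the precision, and dim probes near background carry the least information. The labels give no replicate numbers that groups share, so hearts were paired only through the slide, as a block. Over 135 member differences and 42 alternatives, no difference with an unadjusted p under 0.05 changed its sign, while 55 values of called differences lost their call and 6 others gained one. In all, 74 of the 135 differences, none of them called, changed sign under some alternative. Where results moved, the cause was not tested.

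Members called between control days (4) became 6 with array weights, 5 with the scanner log ratio, 3 with trend and robust eBayes, with only the 2 groups compared or without the hearts lacking atrial transcripts, 2 with plain background subtraction, with the series matrix or without the filter on dim probes, 1 without the hearts high in B cell transcripts, and 0 with normexp fitted on all spots, Cy5 alone, median centring, slide as a block or without the hearts with liver or airway transcripts (1 to 5 leaving out a heart). Genes called in that comparison (1623, 67.2% of them higher) became 79 (92.4% higher) with normexp on all spots, 3862 (47.3% higher) with the scanner log ratio, 758 with Cy5 alone, 87 (100% higher) with median centring, 2686 with array weights, 0 with slide as a block, 1 without the liver or airway hearts and 848 without the B cell hearts (957 to 2068 leaving out a heart). At day 1 (0) they became 1 with plain subtraction, 7 with the scanner log ratio, 4 with array weights and 40 without the hearts lacking atrial transcripts (0 to 21 leaving out a heart). At day 28 (0) they became 6 without the B cell hearts (0 to 3 leaving out a heart). For the difference of differences (0) they became 48 with the scanner log ratio, 1 with Cy5 alone, 93 with array weights, 6 with scan day as a block and 95 without the hearts lacking atrial transcripts (0 to 312 leaving out a heart).

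Median centring put the median of all genes at 0.17 at day 1, -0.10 at day 28, 0.13 between control days, -0.12 between nano-TiO2 days and -0.27 for the difference of differences. The median of the members became 0.48 between control days and -0.47 for the difference of differences, or 0.34 and -0.21 relative to all genes, beside 0.25 and -0.11 with loess. Leaving out a heart gave medians of 0.01 to 0.14 at day 1, -0.15 to 0.06 at day 28 and 0.13 to 0.32 between control days. For Isg15 with Irf7, r became 0.296 without the liver or airway hearts. The 3 sets of hearts left out together, and the other processing of the 2 hearts that stood apart, were chosen after the data were seen.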
